A study of Mus musculus with 4 samples.

Results

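Expression of 8 genes of cholesterol synthesis was examined in cerebral endothelial cells (ECs) of mice with and without tamoxifen, which was given to delete Mgp. The genes were chosen by name, as Hmgcs1, Sqle, Lss, Cyp51, Idi1, Fdft1, Insig1 and Srebf2, and all 8 were found among the 24873 genes of the deposited table. Of these, 6 encode enzymes of the pathway and 2 encode its regulators. None is a lipoprotein receptor, and uptake was described through a separate list. RNA-Seq of CD31+CD45- cerebral cells had been performed on day 9 in 2 libraries per group, and every library held cells from 3 mice combined. All mice had the genotype Cdh5cre;Mgpflox/flox, in which tamoxifen activates a Cre recombinase driven by the VE-cadherin promoter to delete the floxed Mgp gene. Treated mice were given tamoxifen at 75 mg/kg on each of 5 days, starting at 10 weeks. Control littermates were given no tamoxifen, so the drug and the gene deletion cannot be told apart. The labels describe the cells by a tdTomato reporter, whereas the methods of the study describe them by CD31 and CD45. The table heads its columns with C and A, read here as control and tamoxifen, although no label uses the letter A.

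Cholesterol is built from acetyl-CoA. The mevalonate arm of the pathway leads to farnesyl diphosphate, and the sterol arm leads through squalene and lanosterol to cholesterol. Genes of both arms are driven by SREBP2, the product of Srebf2, which is made as a precursor in the endoplasmic reticulum. When sterols are plentiful, INSIG proteins hold the precursor there with its escort SCAP, and when sterols are scarce, it is carried to the Golgi, cleaved and released to the nucleus. The blood-brain barrier formed by cerebral ECs keeps plasma lipoproteins out of the brain, which makes most of its own cholesterol.

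Libraries held 35387438 to 49799321 reads on genes. Levels are normalized counts, that is, reads divided by 1 factor per library. Mgp, the gene targeted for deletion, stood at 1094 and 1352 in the controls and at 945 and 909 after tamoxifen. Its log2 fold change was -0.39 (SE 0.18, limma, BH-adjusted p = 0.0986), and 0.079 when libraries were rescaled to equal totals. A loss of Mgp RNA was thus not called, the values do not check the labels, and control and tamoxifen stand throughout for libraries so labelled. Real-time PCR of the study, on CD31+CD45- cerebral cells, had shown a decrease of Mgp after tamoxifen. Markers of several cell types differed as well, and their summed normalized counts are given as the range in the controls against that after tamoxifen. All 15 endothelial markers were called lower (1655153 to 1663301 against 144460.0 to 291575). Markers were called higher for 8 of 8 cell cycle genes (1204 to 1476 against 83670.0 to 87001), 8 of 8 pluripotency genes (79.0 to 115 against 42750.0 to 54965), 8 of 8 neutrophil genes (233 to 301 against 82306 to 110569), 6 of 6 lymphocyte genes (67.0 to 103 against 1941 to 2694) and 7 of 7 erythroid genes (19224 to 39137 against 112680.0 to 173729). The same held for 8 of 8 astrocyte genes (28985 to 34647 against 148340.0 to 309258), 6 of 7 oligodendrocyte genes (1118 to 1396 against 5384 to 5929), 5 of 6 oligodendrocyte precursor genes (3371 to 5804 against 22542 to 50649), 6 of 8 neuron genes (1311 to 1701 against 11212 to 20218) and 6 of 7 choroid plexus and ependymal genes (6864 to 9669 against 24252 to 75445). It held also for 7 of 7 fibroblast genes (2257 to 3213 against 59828 to 69822) and 5 of 8 microglia and macrophage genes (1312 to 2457 against 3578 to 3979). Of 9 pericyte and smooth muscle genes, only 2 were called higher and 0 lower, and their sums overlapped between groups (31881 to 58963 against 39186 to 78609). Over all tested genes, 28.6% were called higher and 16.0% lower. Of 7 tested pituitary genes, 6 were called lower and 1 higher (13118 to 36985 against 171 to 182). At most 3 reads per control library were found for Prtn3, Cd3e, Cd3d, Dpt and Lhb, and at most 3 per tamoxifen library for Gh, Prl and Pou1f1. The part of these cell types in the values of the cholesterol genes was not tested.

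Of the 8 genes, 7 rose after tamoxifen and none fell. Calls required a BH-adjusted p below 0.05 together with a log2 fold change beyond 1 in either direction (limma on log2 of the normalized count plus 1). By this rule 44.7% of the 20485 tested genes were called, 28.6% higher and 16.0% lower. The adjusted p alone called 7 of the 8 genes higher and none lower, against 33.4% and 25.5% of tested genes. Counting models on recovered reads also called 7 of 8 higher, against 28.6% of tested genes by edgeR and 27.8% by DESeq2. For all 8, both tamoxifen libraries lay above both controls, which held for 43.1% of tested genes, while 39.2% were separated the other way. The 8 genes had a median log2 fold change of 1.52, against 0.051 over all tested genes. In these bulk samples, more cells of a type and more RNA per cell cannot be told apart. Among all tested genes, the log2 fold changes of the 7 called genes lay between percentile 69.7 (Insig1) and 78.5 (Sqle).

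**Figure D1:**
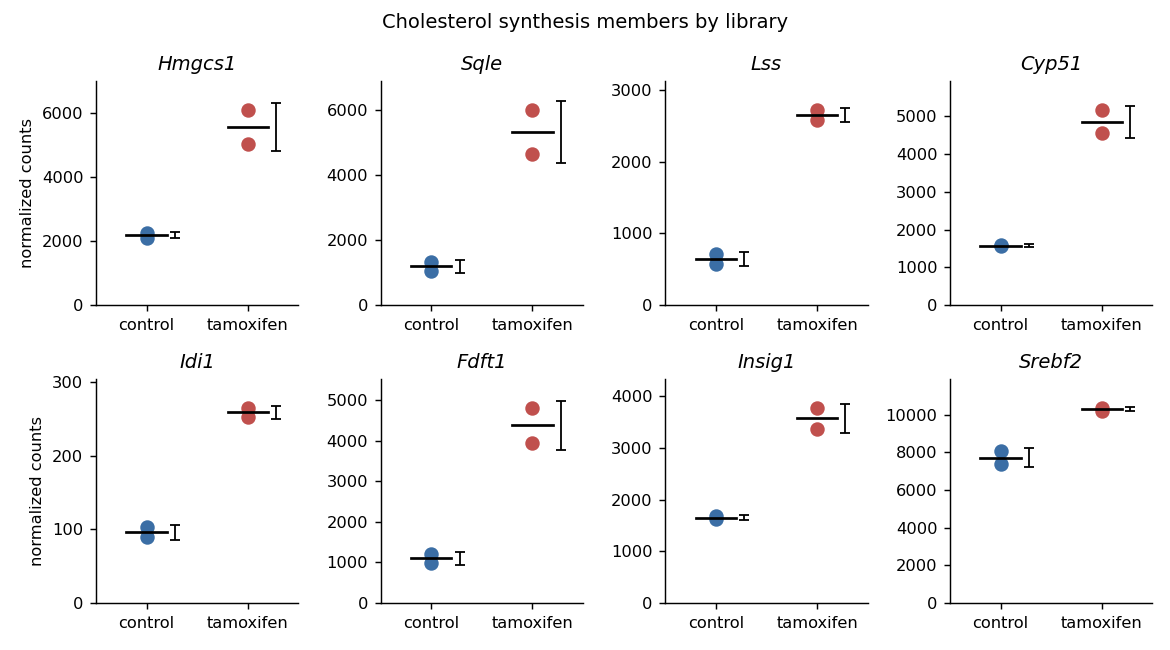
Normalized counts (linear axes from 0) of the 8 cholesterol genes in the 2 control libraries (blue) and the 2 tamoxifen libraries (red), with mean and SD. Both tamoxifen points lie above both control points for every gene, as for 43.1% of tested genes, and Srebf2 has the smallest log2 fold change, 0.41.

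Hmgcs1 encodes HMG-CoA synthase, which joins acetyl-CoA and acetoacetyl-CoA (chromosome 13, 120151915 to 120170470, GRCm39). Its controls stood at 2242 and 2108 normalized counts and its tamoxifen libraries at 5018 and 6069.7. The means were 2175 ± 95.2 and 5544 ± 744 (SD, n = 2), with a log2 fold change of 1.34 (SE 0.16, limma, BH-adjusted p = 0.000297). Idi1 encodes the isomerase that makes dimethylallyl diphosphate (chromosome 13, 8935537 to 8942487). It had the lowest counts of the 8, 103 and 88.9 in the controls and 253 and 265 after tamoxifen, resting on 71 to 368 reads per library. The groups were separate, as for 43.1% of tested genes in this direction, and the log2 fold change was 1.43 (SE 0.33, limma, BH-adjusted p = 0.00715). This call was lost after quantile normalization, where the value was 0.16 (limma, adjusted p = 0.676), and without either tamoxifen library. The adjusted p was then 0.0924 without library 1 and 0.103 without library 2 (limma). Over the 14 alternatives it ranged from 0.000297 with DESeq2 to 0.676 with limma.

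The 4 enzymes at the head of the sterol arm all rose, by 1.62 to 2.16 on the log2 scale. Fdft1 encodes squalene synthase, which commits farnesyl diphosphate to sterols (chromosome 14, 63382189 to 63417027). It went from 981 and 1213 normalized counts in controls to 3939.6 and 4802, a log2 fold change of 1.99 (SE 0.18, limma, BH-adjusted p = 9.50e-05). Sqle encodes squalene epoxidase, a further control point of the pathway (chromosome 15, 59186869 to 59203043). Its controls were at 1056 and 1329 and its tamoxifen libraries at 4660.3 and 5991 normalized counts. This was the largest fold among the 8, with means 4.47-fold apart and a log2 fold change of 2.16 (SE 0.19, limma, BH-adjusted p = 8.83e-05). Lss encodes lanosterol synthase, which closes the sterol rings (chromosome 10, 76367298 to 76392976). It measured 579 and 708 normalized counts in controls and 2585 and 2716 after tamoxifen, a log2 fold change of 2.05 (SE 0.17, limma, BH-adjusted p = 7.43e-05). Cyp51 encodes the lanosterol demethylase (chromosome 5, 4123416 to 4154751). Its values were 1553 and 1596 in controls and 4548 and 5152 after tamoxifen, with a log2 fold change of 1.62 (SE 0.15, limma, BH-adjusted p = 0.000106). In none of the 4 did the groups overlap, and 43.1% of tested genes were separated in this direction and 39.2% in the other. Each was called in all 14 alternatives, with lowest values of 1.84 for Fdft1, 1.97 for Sqle, 1.90 for Lss and 1.53 for Cyp51. The share of all tested genes called in all 14 was not counted.

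Of the regulators, Insig1 was called and Srebf2 was not. Insig1 encodes a retention protein that is itself a target of SREBP2 (chromosome 5, 28276315 to 28283668). Controls held 1688 and 1618 normalized counts and tamoxifen libraries 3374 and 3774, a log2 fold change of 1.11 (SE 0.15, limma, BH-adjusted p = 0.000544). It was called in all 14 alternatives, with a lowest value of 1.03, and the share of all tested genes so called was not counted. Srebf2 (chromosome 15, 82031382 to 82093201) had the highest counts of the 8, 7364 and 8089 in controls and 10212 and 10362 after tamoxifen. The groups did not overlap, as for 43.1% of tested genes in this direction. Its log2 fold change of 0.41 (SE 0.16, limma, BH-adjusted p = 0.0570) met neither limit, and its 95% interval before adjustment ran from 0.040 to 0.79. Across 14 alternatives 3 brought the adjusted p below 0.05, namely equal totals, quantile normalization and DESeq2 (range 0.00176 to 0.352 with limma, edgeR or DESeq2), and the highest log2 fold change was 0.95.

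Shares of each library do not depend on its factor, but they depend on the counts of all other genes. The summed normalized counts after tamoxifen were 0.72 of those in controls, so a gene with unchanged normalized counts has a larger share. Per 1000000 normalized counts, the 8 genes together took 303 and 326 in the controls and 902 and 1093 after tamoxifen. The ratio of mean shares was 3.17 (exact two-sided permutation p = 0.333, the smallest that 2 against 2 libraries allow). On this scale Sqle had 20.6 and 25.9 in controls and 122 and 167 after tamoxifen, and Srebf2 143 and 158 and then 266 and 289. Both genes were thus separated between groups, and the proportion of all tested genes separated on this scale was not counted. The log2 ratio of Sqle to Srebf2 within a library was -2.80 and -2.60 in controls and -1.13 and -0.79 after tamoxifen (exact permutation p = 0.333).

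To compare levels between genes, normalized counts were divided by the canonical transcript length in kilobases. In controls Srebf2 was highest, at 1522 ± 101 per kilobase (SD, n = 2), followed by Insig1 (603 ± 17.9), Hmgcs1 (531 ± 23.2) and Sqle (425 ± 68.8). Next were Cyp51 (317 ± 6.05) and Fdft1 (316 ± 47.2), the only neighbours whose libraries overlapped, then Lss (101 ± 14.3) and Idi1 (37.0 ± 3.79). After tamoxifen Srebf2 (2026 ± 21.0) and Sqle (1897 ± 335) overlapped at the top. Hmgcs1 (1353 ± 182), Insig1 (1305 ± 103) and Fdft1 (1258 ± 175) came next, each overlapping its neighbour. Cyp51 (976 ± 86.0), Lss (415 ± 14.5) and Idi1 (99.8 ± 3.28) followed, apart from one another.

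Sequences before the canonical transcript starts of these genes were searched for letters that factors of this pathway are known to read. SREBP2 binds sterol regulatory elements and acts with NF-Y, which binds the CCAAT box, and with Sp1, which binds the GC box. The 250 bases before the canonical transcript start were searched on both strands for TCACNCCA (SRE-like), CCAAT and GGGCGG. For Fdft1 and Idi1 these bases lie inside the annotated span of the gene. The SRE-like letters were found for 2 of 8 genes, Hmgcs1 and Srebf2, and in 3.41% of 15570 windows of tested genes. CCAAT was found for 7 of 8, all but Cyp51, against 35.6% of windows, and GGGCGG for 6 of 8 against 46.5%. Hmgcs1 and Srebf2 held both SRE-like letters and CCAAT, as did 1.28% of windows. The 4 sequences shown hold both motifs (Hmgcs1, Srebf2), belong to the gene with the largest fold (Sqle) or lack CCAAT (Cyp51). They are the sense strand in GRCm39, ending before the first base of any annotated transcript of the gene, with SRE-like letters and CCAAT or its complement ATTGG in capitals.
Hmgcs1, chr13:120151732-120151914, plus strand: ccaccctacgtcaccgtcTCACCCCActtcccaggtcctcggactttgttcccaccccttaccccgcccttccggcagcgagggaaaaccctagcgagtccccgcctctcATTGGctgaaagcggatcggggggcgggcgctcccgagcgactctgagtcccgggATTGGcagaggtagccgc
Srebf2, chr15:82031132-82031381, plus strand: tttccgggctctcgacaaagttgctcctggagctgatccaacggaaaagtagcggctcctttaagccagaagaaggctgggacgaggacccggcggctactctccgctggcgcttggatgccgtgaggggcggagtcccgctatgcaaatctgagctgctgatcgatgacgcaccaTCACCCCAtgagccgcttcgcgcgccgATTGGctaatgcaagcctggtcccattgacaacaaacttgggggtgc
Sqle, chr15:59186632-59186868, plus strand: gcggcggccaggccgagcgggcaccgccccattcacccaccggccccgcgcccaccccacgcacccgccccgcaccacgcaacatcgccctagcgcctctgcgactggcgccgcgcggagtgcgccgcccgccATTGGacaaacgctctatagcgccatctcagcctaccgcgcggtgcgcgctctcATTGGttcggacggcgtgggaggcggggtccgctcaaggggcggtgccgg
Cyp51, chr5:4154752-4154996, minus strand: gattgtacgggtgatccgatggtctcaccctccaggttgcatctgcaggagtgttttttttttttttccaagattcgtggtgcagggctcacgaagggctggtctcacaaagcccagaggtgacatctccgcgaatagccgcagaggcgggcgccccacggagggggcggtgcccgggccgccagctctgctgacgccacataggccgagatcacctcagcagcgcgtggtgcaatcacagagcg
Counted from the canonical start, the SRE-like letters began at position -232 in Hmgcs1 and at position -74 in Srebf2. CCAAT boxes began at positions -140 and -85 in Hmgcs1 and at position -47 in Srebf2. A match describes letters only.

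**Figure D2:**
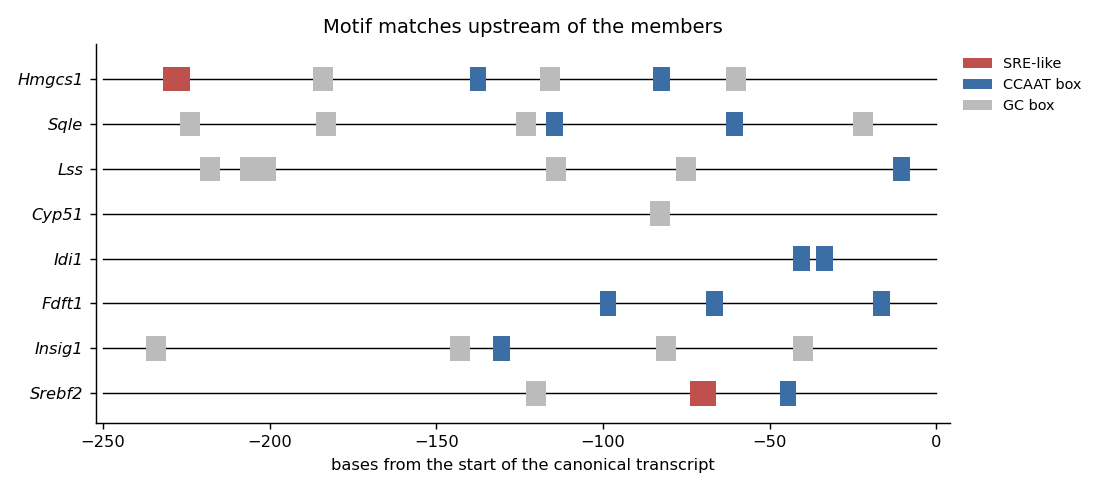
Matches to the SRE-like motif, the CCAAT box and the GC box, on either strand, in the 250 bases before the canonical transcript start of each of the 8 genes, with bases from that start on the x axis. SRE-like matches appear for Hmgcs1 and Srebf2 and CCAAT matches for every gene but Cyp51.

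The remaining enzymes were taken from a list of both arms. Of 24 genes, 23 were tested, of which 15 rose, none fell and 8 were not called (6 of 9 in the mevalonate arm and 9 of 14 in the sterol arm rose, with median log2 fold changes of 1.34 and 1.19). Over all tested genes, 28.6% were called higher and 16.0% lower. Of the 17 tested enzymes outside the 8 genes, 9 rose, with a median of 1.00. Acat2, which supplies acetoacetyl-CoA, rose by 2.12 on the log2 scale, Mvd, the mevalonate diphosphate decarboxylase, by 1.90 and Fdps, the farnesyl diphosphate synthase, by 1.00. Fdps lay at the size limit and lost its call in 3 of 14 alternatives, with 0.92 without control library 1 and 0.96 without tamoxifen library 1.

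In the sterol arm, Msmo1, the methyl sterol monooxygenase, rose from 1772 and 1641 normalized counts to 5467 and 8907 (log2 fold change 2.03, SE 0.23, limma, BH-adjusted p = 0.000235). Hsd17b7, a sterol reductase, rose by 1.32 on the log2 scale and Nsdhl, a sterol dehydrogenase, by 1.08. Dhcr7, a sterol reductase late in the arm, rose by 1.29. After quantile normalization Hsd17b7 (0.94) and Nsdhl (0.95) came under the size limit, and Nsdhl lost its call also without control library 1 (0.82) and without tamoxifen library 1 (limma, adjusted p = 0.0818). Without tamoxifen library 2 only 5 genes of this arm were called instead of 9, as calls over all genes went from 9151 to 4979, and the adjusted p of Hsd17b7, Dhcr7 and Nsdhl was then 0.0569 to 0.111 (limma).

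Other steps were not called. Mvk, the mevalonate kinase, had 988 and 1342 normalized counts in controls and 815 and 902 after tamoxifen, a log2 fold change of -0.42 that became 0.046 with equal totals. Pmvk, the next kinase, had 0.34. Ggps1, which leads farnesyl diphosphate toward protein prenylation, had 2148 and 1929 against 1348 and 1369.5 normalized counts, with a log2 fold change of -0.58 (SE 0.16, limma, BH-adjusted p = 0.0137). Ebp, a sterol isomerase, had 1455 and 1765 against 1139 and 978, with a log2 fold change of -0.60 (SE 0.18, limma, BH-adjusted p = 0.0223). Both stayed under the size limit, and with equal totals their values were -0.11 and -0.13 (limma, adjusted p = 0.522 and 0.513). The log2 ratio of Sqle to Ebp was -0.46 and -0.41 in controls and 2.03 and 2.61 after tamoxifen (exact permutation p = 0.333). Sc5d, a sterol desaturase, overlapped between groups at 0.064, and Erg28, Lbr and Tm7sf2 had 0.36, 0.54 and 0.59.

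**Figure D3:**
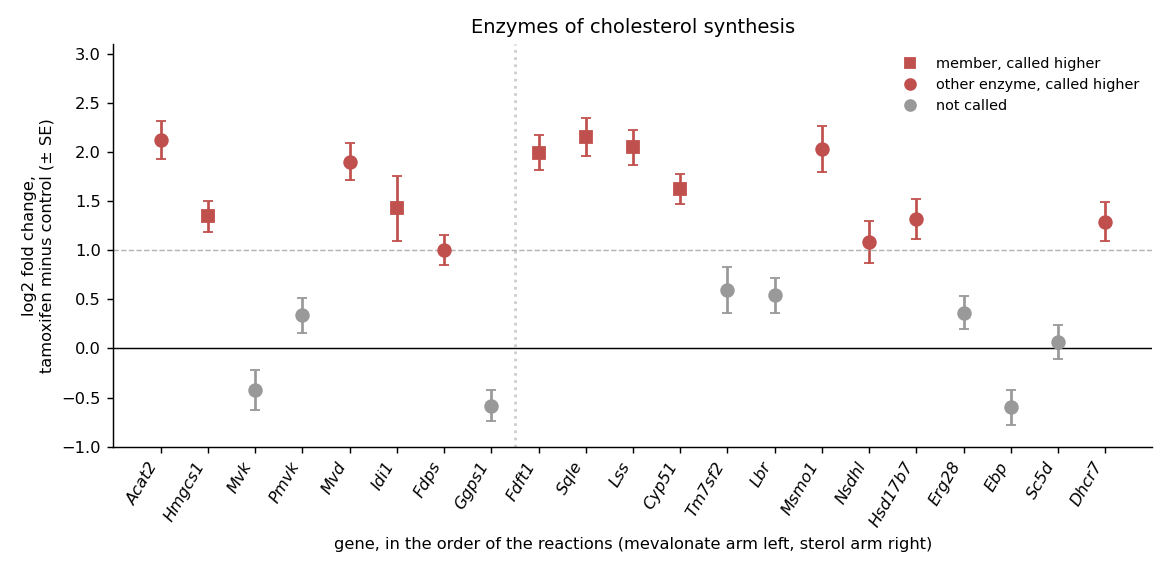
Log2 fold change after tamoxifen (± SE) of tested enzymes in the order of the reactions, from the mevalonate arm to the sterol arm, with squares for enzymes among the 8 genes, red for genes called higher and a dashed line at the size limit of 1. The squares of Fdft1, Sqle, Lss and Cyp51 lie between 1.62 and 2.16, and Mvk, Ggps1 and Ebp lie below 0.

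Genes of sterol sensing were mostly not called. Of 15 tested, 1 rose (Insig1), 1 fell (Nr1h2) and 13 were not called, with a median log2 fold change of -0.45, against 28.6% higher and 16.0% lower over all tested genes. The median was 0.019 with equal totals, where 2 rose and 0 fell, and -0.10 after quantile normalization. Over all tested genes it was 0.051 as deposited, 0.54 with equal totals and -0.23 after quantile normalization. Equal totals gave 7393 genes called higher and 1815 lower of 20668 tested. Insig2, the paralog of Insig1, had 1645 and 1608 normalized counts in controls and 1032 and 1042 after tamoxifen, and its log2 fold change of -0.65 (SE 0.16, limma, BH-adjusted p = 0.00885) was under the size limit and stood at -0.18 with equal totals (limma, adjusted p = 0.309). The log2 ratio of Insig1 to Insig2 was 0.037 and 0.0089 in controls and 1.71 and 1.86 after tamoxifen (exact permutation p = 0.333). The pair was thus nearly level in the controls only.

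Srebf1, which encodes the SREBP of fatty acid synthesis, had 3102 and 3545 normalized counts in controls and 4069.7 and 4503 after tamoxifen, a log2 fold change of 0.37 (SE 0.16, limma, BH-adjusted p = 0.0763). The log2 ratio of Srebf2 to Srebf1 overlapped between groups, at 1.25 and 1.19 in controls and 1.33 and 1.20 after tamoxifen (exact permutation p = 0.667). Scap, the escort, had 3557 and 4277 against 2881 and 2591 normalized counts and a log2 fold change of -0.51, under the size limit and -0.043 with equal totals. The proteases Mbtps1 and Mbtps2 overlapped between groups (-0.016 and 0.060). Nr1h2, the sterol-activated receptor LXR-beta, fell from 4545 and 5364 to 2685 and 2054 normalized counts, with a log2 fold change of -1.07 (SE 0.18, limma, BH-adjusted p = 0.00174). Its call was lost in 4 of 14 alternatives, with -0.60 at equal totals, -0.87 after quantile normalization, -0.95 without control library 2 and -0.88 without tamoxifen library 2, which left 1 of 15 genes called.

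Uptake genes moved in both directions. Of 14 tested, 3 rose, 5 fell and 6 were not called, against 28.6% higher and 16.0% lower over all tested genes, with a median log2 fold change of -0.41. With equal totals 4 rose, 3 fell and the median was 0.036, and after quantile normalization it was -0.93. The whole table moved with the scaling. Its median was 0.051 as deposited, 0.54 with equal totals and -0.23 after quantile normalization. With equal totals, 7393 of 20668 tested genes were called higher and 1815 lower. The receptors Vldlr and Lrp1 rose, Vldlr from 87.7 and 113 to 2339 and 2548 and Lrp1 from 3276 and 4553 to 25442 and 34711 normalized counts. Lrp8, a receptor for apolipoprotein E, fell from 46244 and 32572 to 12446 and 11364, a call lost after quantile normalization (-0.95) and without tamoxifen library 2 (limma, BH-adjusted p = 0.0518, the highest over its alternatives, of which DESeq2 gave the lowest, 7.56e-12). Scarb1, the HDL receptor, fell from 19253 and 19779 to 6121 and 3640.5, and Lipa, the lysosomal lipase that frees cholesterol from its esters, from 15018 and 12875 to 4337 and 2532. Their groups were far apart. Stard4, a cytosolic cholesterol carrier, fell by 1.35 on the log2 scale, and came under the size limit with equal totals (-0.88).

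Of 14 tested genes of export and storage, 7 rose, 3 fell and 4 were not called, with a median log2 fold change of 1.57. The shares over all tested genes were 28.6% higher and 16.0% lower. Without tamoxifen library 2, 6 instead of 10 were called, while calls over all genes went from 9151 to 4979. Soat1, which esterifies cholesterol for storage, rose from 796 and 728 to 3545 and 4312 normalized counts, with a log2 fold change of 2.36 (SE 0.17, limma, BH-adjusted p = 3.90e-05). Abcg4, an exporter, rose by 4.55 on the log2 scale, Lcat, which esterifies cholesterol on lipoproteins, by 2.20, and the oxysterol enzyme Cyp7b1 by 2.91. The exporters Abcg1 and Abca7 fell by 1.94 and 1.58. Abca1, which loads cholesterol on apolipoproteins, had 18453 and 14714 against 10140.0 and 11274 normalized counts, and its log2 fold change of -0.62 was not called and stood at 0.012 after quantile normalization. Apoe, the main apolipoprotein of the brain, had 21983 and 33175 against 41746 and 63667, with a log2 fold change of 0.93 (SE 0.32, limma, BH-adjusted p = 0.0354). It missed the size limit here but was called at 1.40 with equal totals and 1.94 after quantile normalization. With 1 library left out, the log2 fold change of Apoe ranged from 0.63 to 1.24. Its adjusted p was below 0.05 in only 9 of the 14 alternatives (limma, edgeR or DESeq2).

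Fatty acid synthesis was taken as a neighbouring list. Of 13 tested genes, 9 rose, 1 fell and 3 were not called, against 28.6% higher and 16.0% lower over all tested genes. The list had a median log2 fold change of 1.32. Fasn, the fatty acid synthase, rose from 1369.7 and 1861 to 18035 and 18821 normalized counts, with a log2 fold change of 3.53 (SE 0.19, limma, BH-adjusted p = 1.14e-05), above the value of each of the 8 cholesterol genes. Scd1, a desaturase, rose by 3.35 and Elovl6, an elongase, by 3.08 on the log2 scale. Acly and Acaca, which supply acetyl-CoA and malonyl-CoA, had 0.79 and 0.57 and were not called. With equal totals both were called (1.26 and 1.04), as was Acly after quantile normalization (1.39). Acacb, the carboxylase linked to fatty acid oxidation, fell from 6949 and 7097 to 1838 and 1078 normalized counts.

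**Figure D4:**
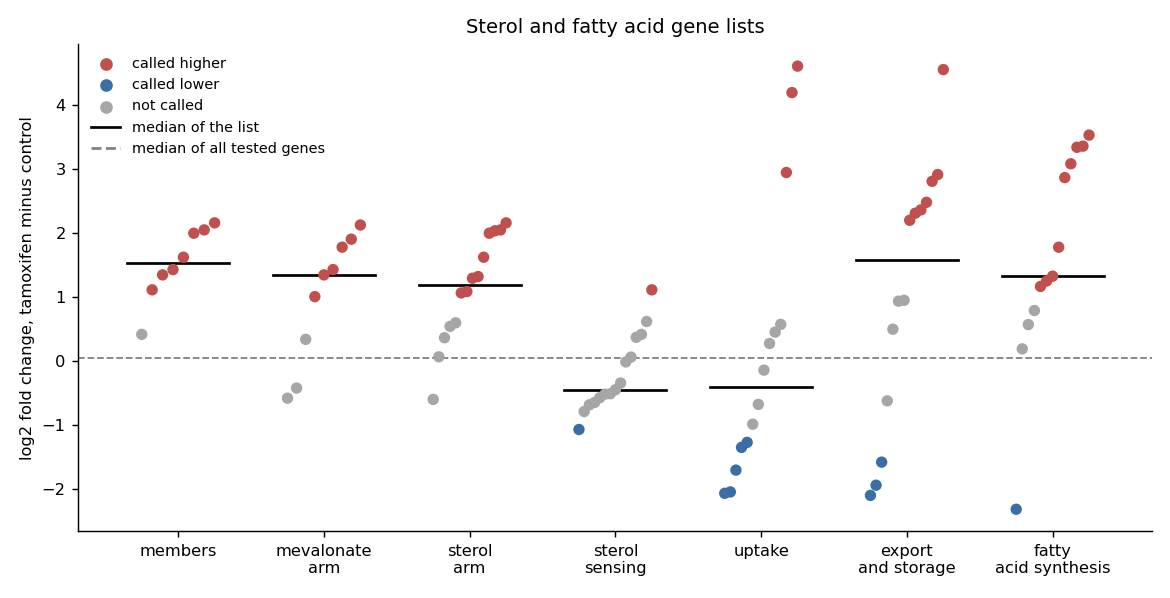
Log2 fold change after tamoxifen of each tested gene in the lists, with red for genes called higher, blue for genes called lower and grey for genes not called. Black lines are list medians and the dashed line is the median of all tested genes (0.051), and the 8 cholesterol genes have 7 red points and no blue point.

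Some reads may be shared with other genes, since the strand setting of the counting is not given in the sources used here. Opposite-strand exons of other protein-coding genes overlapped Cyp51 (Akap9, 1204 bases), Fdft1 (Ctsb, 1184 bases), Sqle (Washc5, 470 bases), Srebf2 (Shisa8, 405 bases) and Hmgcs1 (Nim1k, 77 bases). Akap9, Ctsb and Washc5 had log2 fold changes of -0.56, 0.64 and 0.58. Shisa8 had 2.74 and 6.26 normalized counts in controls and 81.3 and 70.5 after tamoxifen, and Nim1k was called higher, with 1.18. Both were higher after tamoxifen, as were Ctsb and Washc5, while Akap9 was lower. Ctsb had 9399 and 11431 normalized counts in controls and 16742.5 and 15493 after tamoxifen. Washc5 had 3033 and 3247 against 4989 and 4398. The part of shared reads was not tested. A transcript of Baz1a is 99.5% identical to Hmgcs1 over 396 bases, and Baz1a had a log2 fold change of 0.54. Idi1 shares 684 bases at 100% identity with the pseudogene Idi1-ps1 and 681 bases at 97.7% with Idi1-ps2, so its level is uncertain. The pseudogene Gm6781, 97.4% identical to Fdft1 over 1249 bases, had at most 10.8 normalized counts.

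Profiles over the 4 libraries were compared by the Euclidean distance of centred log2 values. Among the listed genes, Fdft1 was closest to Sqle (0.17), Lss to Fdft1 (0.16), Acat2 to Lss (0.15), Idi1 to Hmgcs1 (0.19) and to Cyp51 (0.27), Hmgcs1 to Insig1 (0.25) and Erg28 to Srebf2 (0.056). Outside the lists, the 5 genes of 13595 compared that were closest to the median profile of the 8 were Gas2, Sh3pxd2b, Metrnl, Frat2 and 1700025G04Rik, at distances of 0.061 to 0.13 and with log2 fold changes of 1.43 to 1.65.

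The direction of all 8 genes was the same in each of the 14 alternatives, and 6 of them (Hmgcs1, Sqle, Lss, Cyp51, Fdft1 and Insig1) were called in every one. How many of all tested genes were called in every one was not counted, so this is not shown to be particular to them. The median over all tested genes was 0.051 as deposited, 0.54 with equal totals and -0.23 after quantile normalization, and genes called higher made up 64.1%, 80.3% and 45.6% of all calls. Relative to these medians, that of the 8 genes stood at 1.47, 1.45 and 1.92.

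**Figure D5:**
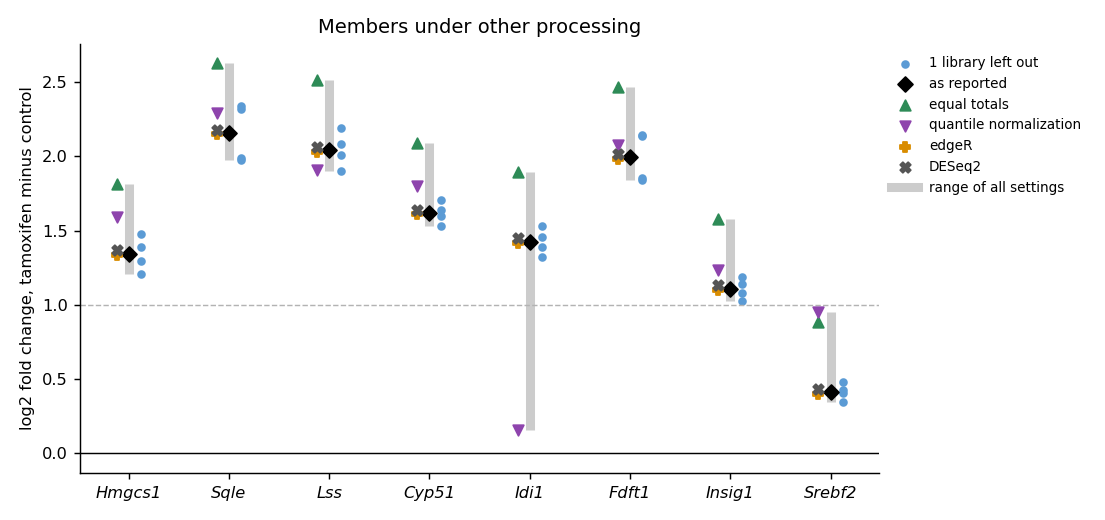
Log2 fold change of the 8 cholesterol genes as reported and under other scalings, count models and with 1 library left out, with a dashed line at the size limit of 1. Every point lies above 0, Srebf2 stays under 1, and Idi1 drops to 0.16 after quantile normalization.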

How the data were processed

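RNA of CD31+CD45- cerebral cells was measured in 2 control and 2 tamoxifen libraries. The authors used a stranded mRNA kit, STAR 2.7.10a with GRCm39 for alignment and quantification, a low-count filter and DESeq2 1.36.0 for normalization. Annotation release, strand setting and low-count limit are not given in the sources used here. The unit of the deposited table is a signal, the read count of a gene divided by a library factor that the authors estimated. Dividing each column by its smallest step returned whole reads for 100% of values (tolerance 0.01 reads). The 8 genes rest on 71 to 14414 reads per library. Depth covers counting error only, and p-values measure the spread between pools of mice.

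Tests used limma 3.58.1 in R 4.3.3 (lmFit, eBayes with trend) on log2(normalized count + 1), which understates changes of low genes, for the 20485 genes whose mean reached 10, with Benjamini-Hochberg (BH) adjustment over all of them. Exact permutation tests were two-sided (scipy 1.17.1). Scripts were tested on simulated data. Other settings were a pseudocount of 0.5 or 5, omitting the filter or raising it to 100, rescaling to equal totals, quantile normalization, limma without trend, a replicate block, count models (edgeR 4.0.16, DESeq2 1.42.0) and omission of each library, where a lone library is assumed to vary like the other group. The adjusted p alone was a further criterion. GENCODE M39 on GRCm39 gave locations, lengths and upstream sequence, and blastn 2.17.0 found copies (90% identity over 100 bases or more).

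The 8 genes and all lists were chosen with earlier results of these data known. Named genes are the 8, genes of the lists and the 5 closest profiles outside them. Columns of the table were read by their letters. Some genes of the lists enter the counts but are not reported here by name.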

Additional observations from a re-analysis of the deposited data

How the results depend on the processing

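The 8 genes kept direction throughout. Whether a gene was called or not stayed the same in 117 of 120 comparisons, the other 3 being those of Idi1 in the report. These comparisons include the adjusted p alone as a criterion, and Srebf2 counts as the same by staying uncalled. Srebf2, never called, had an adjusted p below 0.05 in 3 alternatives (limma or DESeq2), as given there. Their median log2 fold change was 1.99 with equal totals and 1.70 after quantile normalization. A filter at a mean of 100 left 5934 of 9151 calls, from 13668 tested genes. With 1 library left out, 4979 to 10001 genes were called in all, with the lowest count without tamoxifen library 2 and 5811 without tamoxifen library 1. Then 5 to 9 sterol arm, 1 to 2 sensing and 6 to 12 export and storage genes were called. By the adjusted p alone 8 of 15 sensing genes were called instead of 2. Of these 2 were higher and 6 lower, against 33.4% and 25.5% of all tested genes. The Srebf2 to Srebf1 difference of 0.046 ranged from -0.016 to 0.11, negative without tamoxifen library 1. Over 79 genes followed in this way, 1086 of 1181 comparisons kept direction and call, 52 lost the call, 31 gained it and 12 changed sign, all in genes that were not called. The sign changed with equal totals for Mbtps1 (0.45), Mvk (0.046) and Mgp (0.079), after quantile normalization for Mbtps1 (0.54), Mbtps2 (-0.10), Abca1 (0.012) and Tm7sf2 (-0.071), and with DESeq2 for Mbtps1 (0.0070). With 1 library left out, Mbtps1 ranged from -0.14 to 0.11, Mbtps2 from -0.24 to 0.36 and Sc5d from -0.12 to 0.24. The cause was not tested.

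Replicate numbers are shared between the groups, but no label ties them to a batch. Taken over all 20485 tested genes, same-numbered libraries did not deviate together (correlation of deviations 0.025). Some markers did, as summed pericyte and smooth muscle markers were higher in library 2 of both groups (31881 and 58963, then 39186 and 78609). Others did not, as erythroid markers were higher in control library 2 (19224 and 39137) but lower in tamoxifen library 2 (173729 and 112680). With the replicate number as a block, 9525 genes were called, and 7 of the 8 genes.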
